A study of Homo sapiens with 6 samples.

Results

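The genes described here carry the proteins that bud COPII vesicles from the endoplasmic reticulum (ER) and deliver them to the Golgi, in human SKM-1 cells expressing mutant or wild-type U2AF1. Members were chosen by 2 annotation columns and 1 level: the gene ontology term COPII vesicle coating, absence of the KEGG term for protein processing in the ER, and a mean of at least 1 FPKM over the 6 libraries. FPKM, fragments counted relative to transcript length and to all mapped fragments of the library, is a level per length. The rule found 44 of the 31142 genes in the table. The ontology term marks 61 genes, of which 51 lack the KEGG term, and 7 of these fell below the minimum. Closest to the limit were FOLR1 at 1.13 and TRAPPC9 at 1.19 FPKM inside it, and TRAPPC2 at 0.732 and COL7A1 at 0.435 FPKM outside it. The other 5 genes left out were CNIH2, F8, CNIH3, F5 and TGFA, with means from 0.00138 to 0.281 FPKM. FOLR1 is the member that passed through 1 group alone, since its S34F mean was 0.704 and its WT mean 1.56 FPKM.

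SKM-1 is a leukemia line established from a patient whose myelodysplastic syndrome had progressed. U2AF1 is the small subunit of the splicing factor that reads the 3′ end of introns, and S34F replaces the serine at position 34 by phenylalanine. The 3 S34F libraries came from cells given the mutant and the 3 WT libraries from cells titled as carrying wild-type U2AF1, with RNA taken after 96 h. Per the study's methods, both forms were FLAG-tagged and delivered by a lentivirus with a ubiquitin promoter to cells that keep their own wild-type U2AF1, and infected cells were selected with puromycin. The WT titles also carry the letters NC, which the study uses for negative controls, in its methods untransfected cells. Its sequencing methods speak of a vehicle control, and its results of cells expressing wild-type U2AF1. Whether these cells carry the wild-type transgene therefore cannot be told from the labels. If they do not, the virus and the puromycin selection also differ between the groups and cannot be told apart from the mutant. Nothing in the sources says that replicates were separate infections, so the p-values measure the spread between these samples, which may be technical. In bulk RNA, fewer cells of a type and less RNA per cell cannot be told apart.

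COPII vesicles form where the small GTPase SAR1, switched on by PREB, recruits the inner coat of SEC23 and SEC24 and the outer cage of SEC13 and SEC31. SEC16A and TFG organise these exit sites, and p24 proteins and cargo receptors select what leaves. Released vesicles are caught by the TRAPP complex, by RAB1 and by long tethers such as USO1 (p115) and GOLGA2 (GM130), and fuse through the SNAREs STX5, GOSR2, BET1 and SEC22B. The pathway carries most secreted and surface proteins of a blood cell. Most of the core coat genes carry the KEGG term as well and are therefore not members.

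U2AF1 itself stood at 9.24, 9.48 and 9.18 FPKM in S34F replicates 1 to 3 and at 8.67, 8.70 and 7.65 FPKM in WT replicates 1 to 3 (log2 fold change 0.14, limma unadjusted p = 0.194). The transgene, the endogenous gene and the mutant allele cannot be separated at gene level, and the duplicate locus U2AF1L5 could take part of its reads. Approximate depth, read from single-exon genes, was 20500000 to 26100000 fragments. Of 12 erythroid markers, 9 averaged 10 FPKM or more, and the list summed to 12133 to 13894 FPKM in S34F and 11741 to 12827 FPKM in WT. Of 12 monocytic and myeloid markers, 7 were under a mean of 1 FPKM, with MPO, S100A8 and FCN1 at or near 0, while CD68, LYZ and SPI1 averaged 10 FPKM or more. The high erythroid genes and the missing granule genes go against the myeloid origin of the named line. Summed myeloid markers were 57.2 to 83.2 FPKM in S34F and 79.5 to 98.6 FPKM in WT. The 7 under 1 FPKM were not tested. Of the others, 2 had an unadjusted p under 0.05 by limma and were lower (ITGAM and CD33), against 1.57% of all genes tested. The 5 lymphoid markers in the table, mostly CD3D, summed to 9.11 to 15.5 FPKM in S34F and 17.5 to 17.8 FPKM in WT. The part of these markers in the results was not tested.

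Across the 10942 genes with a mean of at least 1 FPKM, 262 (2.39%) had an unadjusted p under 0.05 by limma on log2(FPKM + 1), 90 (0.823%) higher and 172 (1.57%) lower in S34F, and 0 (0%) had an adjusted p under 0.05. Of the 44 members, 4 (9.09%) had an unadjusted p under 0.05 and 0 an adjusted one, the adjusted p of every member being 1.00. PPP6R3 and TRAPPC6B were higher and TRAPPC6A and FOLR1 lower in S34F. FOLR1 passed the minimum only through WT, where it is high, and without it 3 calls are left. In 808 genes (7.38%) the 3 S34F values did not overlap the 3 WT values, with S34F above in 400 (3.66%) and below in 408 (3.73%). Among the members this was so for 8 (18.2%), with S34F above in CNIH1, CUL3, GOSR2, PPP6R3 and TRAPPC6B and below in FOLR1, TRAPPC6A and TRAPPC9. The separation of FOLR1 is favoured by the way it passed the minimum, so it does not support this count either. For each of these 8 the exact two-sided permutation test gave p = 0.1, the smallest that 3 against 3 allows. That value follows from the separation by which they were picked, so it adds nothing to it. The log2 fold change was above 0 in 31 members and below 0 in 13 (70.5% above), with a median of 0.08. Over all genes tested 54.6% were above 0, with a median of 0.01.

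**Figure D1:**
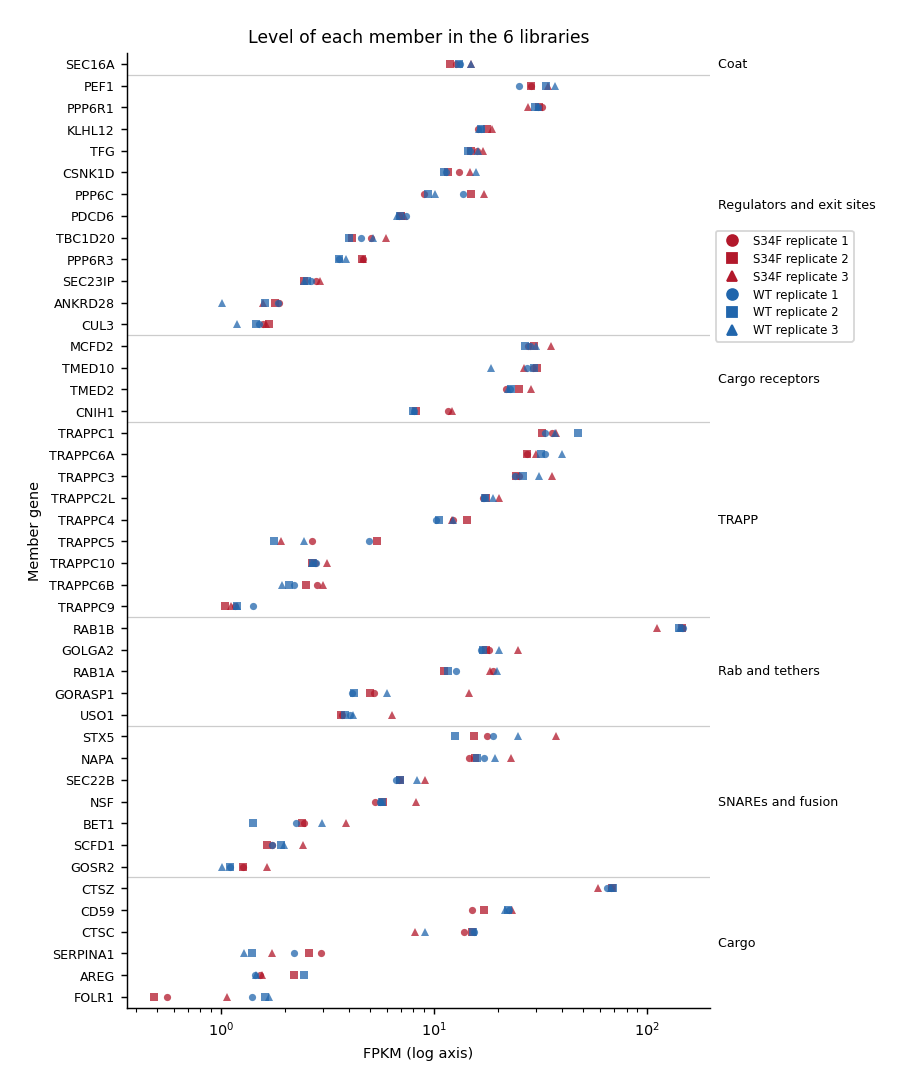
FPKM of each of the 44 members in the 6 libraries on a log axis, ordered by role; red marks S34F, blue marks WT, and the marker shape gives the replicate. RAB1B lies highest, FOLR1 lowest, and the S34F replicate 3 triangles lie to the right of the others for most SNAREs and tethers.

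Promoter sequences of TRAPPC6A and PPP6R3 are shown because these members were called in opposite directions. Each run is from the RefSeq promoter entry (GRCh38.p14), 5′ to 3′ on the gene's strand, and lies before every exon of the gene in GENCODE 29. Capitals mark the letters GGGCGG, a GC box. The runs are TRAPPC6A at chr19:45178238-45178317 (minus strand) and PPP6R3 at chr11:68460651-68460730 (plus strand).
TRAPPC6A: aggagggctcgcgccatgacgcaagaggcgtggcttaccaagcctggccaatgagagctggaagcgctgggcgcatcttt
PPP6R3: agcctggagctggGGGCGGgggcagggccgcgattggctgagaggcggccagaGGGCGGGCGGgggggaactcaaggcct
The PPP6R3 run holds GC boxes and the TRAPPC6A run holds none of the letters searched. Counted from the start in its entry, the PPP6R3 run spans bases 101 to 22 before it and the TRAPPC6A run bases 80 to 1. Each run is part of a longer entry, so this contrast does not describe the whole promoters. A link between these letters and the direction of change was not tested.

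Promoter entries of 300 bases, 250 before and 50 after the start, were found for 38 of the 44 members (55 entries, several genes having more than 1). Their median GC content was 64.3%, against 65.2% for 10606 entries of the genes tested. Each motif was searched as letters on both strands, and ACGTGGC can overlap TGACGTGG and CACGTG. The letters TGACGTGG, the core of the site that the unfolded protein response factors XBP1 and ATF6 bind, stood in 7.27% of the members' entries (SCFD1, SEC16A and STX5) against 0.830% for the genes tested and 0.729% of all 35116 entries. ACGTGGC stood in 14.5% of the members' entries, 4.42% of those of the genes tested and 3.22% of all. The cyclic AMP response letters TGACGTCA stood in 7.27%, 3.14% and 1.85% of the same sets, and the E-box CACGTG in 14.5%, 10.2% and 7.26%. The ETS letters CCGGAAGT stood in 16.4%, 9.06% and 4.14%, AAGATGGCG in 3.64%, 4.11% and 1.748%, and GGGCGG in 70.9%, 69.3% and 45.0%. These are matches of letters, not sites shown to be bound.

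Among annotations that the rule did not use, Golgi membrane was carried by 42 of the 44 members, against 4.35% of the tested genes with any ontology term. Transport from the ER to the Golgi was carried by 36, against 1.60%. Both are close in meaning to the ontology term that chose the members, so these shares describe the list and are no separate result. The KEGG term for SNARE interactions in vesicular transport was carried by 4. Members lay on many chromosomes, most often 11 (7 members) and 14 (5 members). In GRCh38 by GENCODE 29, the 4 called genes lie at chr19:45162928-45178237 (TRAPPC6A), chr14:39147811-39170532 (TRAPPC6B), chr11:68460731-68615334 (PPP6R3) and chr11:72189558-72196323 (FOLR1). All 4 are protein-coding.

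SEC16A, the scaffold on which exit sites assemble, is the coat gene among the members. It stood at 12.7, 11.8 and 14.8 FPKM in S34F and at 13.2, 13.1 and 14.8 FPKM in WT, and the groups overlapped (log2 fold change −0.06).

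The 12 regulators of the coat and organisers of exit sites had 10 log2 fold changes above 0 and a median of 0.08, with 1 called. PPP6R3, a regulatory subunit of protein phosphatase 6, which dephosphorylates the coat, stood at 4.66, 4.596 and 4.64 FPKM in S34F and at 3.57, 3.58 and 3.84 FPKM in WT. Every S34F library was above every WT library, and the S34F values were nearly equal. Its log2 fold change was 0.27 ± 0.09 (SE, n = 3 per group; limma unadjusted p = 0.0228, adjusted p = 1.00). The call was lost without S34F replicate 1 (unadjusted p = 0.0685), S34F replicate 2 (unadjusted p = 0.0634), WT replicate 1 (unadjusted p = 0.0859) or WT replicate 2 (unadjusted p = 0.0859) in the same limma fit, with the log2 fold change between 0.26 and 0.30 in all 6 fits that left out a library. CUL3, the scaffold of the ubiquitin ligase that acts on SEC31, stood at 1.57, 1.68 and 1.62 FPKM in S34F and at 1.51, 1.46 and 1.19 FPKM in WT. Its groups did not overlap, by a gap that is small beside the WT spread (log2 fold change 0.14, limma unadjusted p = 0.223, and 0.08 without WT replicate 3).

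KLHL12, the adaptor that brings SEC31 to CUL3, had a log2 fold change of 0.07 and overlapping groups. PEF1, a calcium-binding partner of that ligase and the highest of the regulators, stood at 28.6, 28.4 and 34.1 FPKM in S34F and at 24.98, 33.4 and 37.0 FPKM in WT, with no separation. ANKRD28, another phosphatase 6 subunit and 1 of the 5 lowest members, stood at 1.87, 1.80 and 1.58 FPKM in S34F and at 1.86, 1.602 and 1.02 FPKM in WT, again overlapping. The catalytic subunit PPP6C and the subunit PPP6R1 had log2 fold changes of 0.26 and −0.01, neither called. The other members of this role, CSNK1D, PDCD6, SEC23IP, TBC1D20 and TFG, had log2 fold changes from 0.00 to 0.12.

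All 4 p24 proteins and cargo receptors had log2 fold changes above 0 (median 0.17) and none was called. CNIH1 (cornichon), which exports growth factor precursors and receptors, stood at 11.6, 8.203 and 12.1 FPKM in S34F and at 8.03, 7.93 and 8.03 FPKM in WT. The groups did not overlap, but S34F replicate 2 lay close to the WT values. Its log2 fold change was 0.35 ± 0.15 (SE, n = 3 per group), with limma unadjusted p = 0.0550, and unadjusted p = 0.0453 when the replicate number was a block. TMED10, a p24 protein, stood at 29.03, 30.6 and 26.4 FPKM in S34F and at 27.4, 29.4 and 18.6 FPKM in WT. TMED2, its partner, stood at 21.7, 25.1 and 28.6 FPKM in S34F and at 22.8, 22.9 and 22.1 FPKM in WT. Both overlapped between groups, as did MCFD2, the partner of the lectin receptor LMAN1 (log2 fold change 0.10).

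Among the 9 TRAPP subunits, 6 log2 fold changes were above 0 and 3 below (median 0.05), with 1 called in each direction. TRAPPC6A stood at 27.3, 27.4 and 30.2 FPKM in S34F and at 33.3, 31.9 and 39.75 FPKM in WT. Every S34F library was below every WT library. Its log2 fold change was −0.29 ± 0.12 (SE, n = 3 per group; limma unadjusted p = 0.0454), and this call was lost under median-ratio scaling (limma unadjusted p = 0.0534), upper quartile scaling (unadjusted p = 0.0512) and scaling every library to the same total (unadjusted p = 0.0681). It was also lost without S34F replicate 1 (limma unadjusted p = 0.118), S34F replicate 2 (unadjusted p = 0.124), WT replicate 1 (unadjusted p = 0.0783) or WT replicate 3 (unadjusted p = 0.107).

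TRAPPC6B, the related subunit that takes the same place in the complex, stood at 2.83, 2.51 and 2.998 FPKM in S34F and at 2.19, 2.08 and 1.93 FPKM in WT. Every S34F library was above every WT library. Its log2 fold change was 0.30 ± 0.10 (SE, n = 3 per group; limma unadjusted p = 0.0242), and the call was lost without S34F replicate 1 (limma unadjusted p = 0.0704), WT replicate 2 (unadjusted p = 0.0694) or WT replicate 3 (unadjusted p = 0.0553). No exon of another gene overlaps TRAPPC6A in the annotation, while TRAPPC6B shares exons with AL109628.2 on the opposite strand (mean 0.404 FPKM).

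The ratio of TRAPPC6A to TRAPPC6B within each library was 9.68, 10.9 and 10.1 in S34F and 15.2, 15.3 and 20.5 in WT. The means were 10.2 ± 0.633 and 17.0 ± 3.06 (SD, n = 3 per group). Since neither gene overlapped between groups and they moved oppositely, the ratios had to separate, so they restate the values above and no test is given. The 5 pairs of related members examined were picked after their values were seen. The ratio of PPP6R1 to PPP6R3, related subunits of phosphatase 6, was 6.90, 6.76 and 5.95 in S34F and 8.61, 8.35 and 7.99 in WT, also without overlap. PPP6R3 was the member that was called, and PPP6R1 had a log2 fold change of −0.01. This ratio therefore largely restates the PPP6R3 values, and no test is given for it either. The ratios of RAB1B to RAB1A (exact permutation p = 0.7), TMED10 to TMED2 (p = 0.6) and CTSZ to CTSC (p = 0.8) overlapped between groups.

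TRAPPC9, found in the larger TRAPP assembly, stood at 1.16, 1.04 and 1.11 FPKM in S34F and at 1.42, 1.19 and 1.19 FPKM in WT. The groups were separated by a gap far smaller than the WT range (log2 fold change −0.10, limma unadjusted p = 0.335, and −0.05 without WT replicate 1). TRAPPC5, a core subunit, was among the most variable members, at 2.68, 5.38 and 1.92 FPKM in S34F and at 4.96, 1.78 and 2.46 FPKM in WT. High and low libraries occurred in both groups. TRAPPC1, the highest TRAPP subunit, stood at 35.9, 32.3 and 37.1 FPKM in S34F and at 33.2, 47.4 and 36.8 FPKM in WT, overlapping. TRAPPC2L, TRAPPC3, TRAPPC4 and TRAPPC10 had log2 fold changes from 0.03 to 0.22. TRAPPC4 shares exons on opposite strands with RPS25, whose mean was 797 FPKM, and the strand setting of the authors' counting is not given in the sources used here.

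Of the 5 Rab GTPases and Golgi tethers, 4 had log2 fold changes above 0 (median 0.12), and none was called. RAB1B, the GTPase that recruits tethers to vesicles and the highest member, stood at 146, 146 and 111 FPKM in S34F and at 148, 142 and 143 FPKM in WT. S34F replicate 3 alone stood apart, below the rest. RAB1A, its close relative, stood at 18.8, 11.1 and 18.3 FPKM in S34F and at 12.7, 11.7 and 19.7 FPKM in WT, with no order by group. GORASP1 (GRASP65), which stacks and tethers Golgi cisternae, stood at 5.20, 4.99 and 14.6 FPKM in S34F and at 4.10, 4.22 and 5.996 FPKM in WT. S34F replicate 3 was far above any other library, and WT replicate 3 lay above S34F replicates 1 and 2. The log2 fold change was 0.55 ± 0.37 (SE, n = 3 per group; limma unadjusted p = 0.189), without S34F replicate 3 it was 0.09 (limma unadjusted p = 0.579), and without both replicates numbered 3 it was 0.24 (limma unadjusted p = 0.0155), a fit in which 16.9% of all genes were called. GOLGA2 and USO1 had log2 fold changes of 0.15 and 0.12, with S34F replicate 3 highest in both. GORASP1 shares exons with WDR48 on the opposite strand (mean 4.04 FPKM), and GOLGA2 has a copy in the table, GOLGA2P10 (mean 5.81 FPKM), with which it may share reads.

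Of the 7 SNAREs and fusion factors, 6 had log2 fold changes above 0 (median 0.14), and none was called. GOSR2 (membrin), a Golgi SNARE, stood at 1.27, 1.27 and 1.65 FPKM in S34F and at 1.10, 1.10 and 1.008 FPKM in WT. Its groups did not overlap (log2 fold change 0.21 ± 0.11, SE, n = 3 per group; limma unadjusted p = 0.0953), and without S34F replicate 3 the log2 fold change was 0.13. STX5, the Golgi syntaxin with which the others pair, stood at 17.7, 15.4 and 37.4 FPKM in S34F and at 19.0, 12.5 and 24.7 FPKM in WT. Replicate 3 was the highest library of each group, and the groups overlapped. BET1, SEC22B, SCFD1, NSF and NAPA, the other SNAREs and the factors that guide or take apart SNARE complexes, had log2 fold changes from −0.00 to 0.29, and S34F replicate 3 was the highest library for all 5. NSF may share reads with its copy NSFP1, whose mean was 4.72 FPKM.

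The term also names 6 cargo genes, of which 5 had log2 fold changes below 0 (median −0.07) and 1 was called. FOLR1, the folate receptor alpha, stood at 0.556, 0.485 and 1.07 FPKM in S34F and at 1.40, 1.602 and 1.68 FPKM in WT. Every S34F library was below every WT library. Its log2 fold change was −0.60 ± 0.15 (SE, n = 3 per group; limma unadjusted p = 0.00547, adjusted p = 1.00) on the log2(FPKM + 1) scale, and −1.11 and −1.22 with pseudocounts of 0.1 and 0.01. Because FOLR1 entered the list through the group in which it is high, these values are a description and do not support the count of calls. Its lowest value rests on about 13.1 fragments.

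SERPINA1 (alpha-1 antitrypsin), a secreted protease inhibitor, stood at 2.95, 2.60 and 1.73 FPKM in S34F and at 2.20, 1.40 and 1.29 FPKM in WT. The groups overlapped, and each S34F library exceeded the WT library of its number (log2 fold change 0.38 ± 0.19, SE, n = 3 per group; limma unadjusted p = 0.0885, and unadjusted p = 0.0218 with the replicate number as a block). CTSZ (cathepsin Z), the second highest member, stood at 67.5, 68.0 and 59.0 FPKM in S34F and at 65.0, 68.9 and 67.4 FPKM in WT. CD59, the surface inhibitor of complement, stood at 15.1, 17.1 and 23.2 FPKM in S34F and at 22.5, 22.2 and 21.5 FPKM in WT. S34F replicates 1 and 2 of CD59 were below all WT libraries and replicate 3 above them. The protease CTSC (cathepsin C) and the growth factor AREG (amphiregulin) had log2 fold changes of −0.10 and −0.00.

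**Figure D2:**
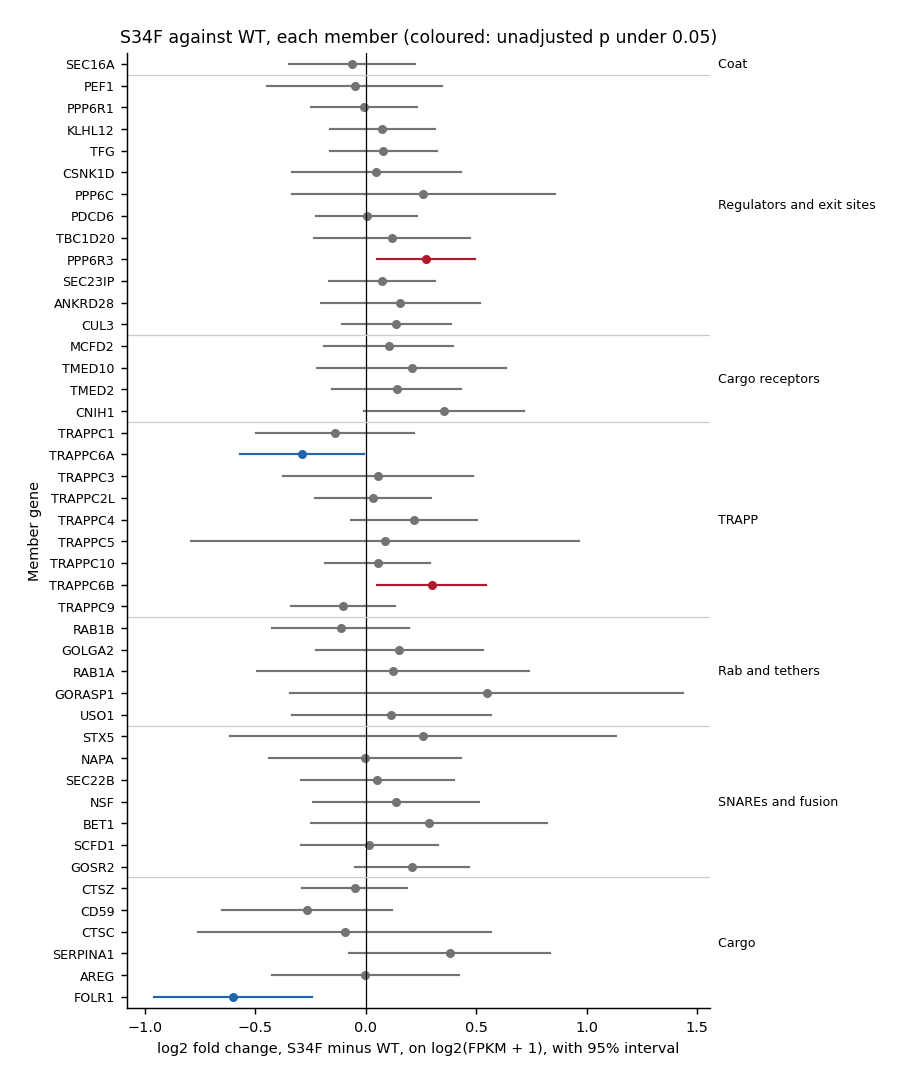
Log2 fold change of each member, S34F minus WT on log2(FPKM + 1), with its 95% interval, ordered by role; red and blue mark an unadjusted p under 0.05 higher and lower in S34F. The intervals of PPP6R3 and TRAPPC6B lie above 0 and those of TRAPPC6A and FOLR1 below it.

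**Figure D3:**
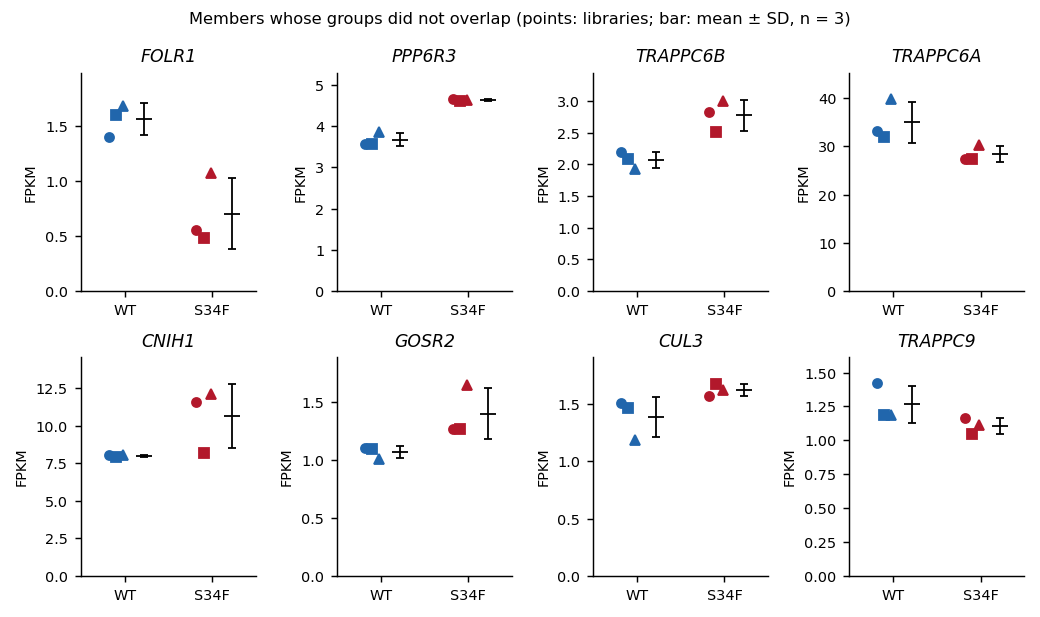
FPKM by library of the 8 members whose groups did not overlap, WT in blue and S34F in red, with the mean ± SD (n = 3) beside the points and every axis starting at 0. FOLR1, TRAPPC6A and TRAPPC9 are lower in S34F and the other 5 are higher, with the narrowest gaps for their level in CNIH1, CUL3 and TRAPPC9.

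S34F replicate 3 was the highest library for 24 of the 44 members (54.5%), against 31.4% of all genes tested. The members' median deviation from their own 6-library mean in that library was 0.14 on the log2(FPKM + 1) scale, against 0.01 over all genes. Replicate 3 minus the mean of replicates 1 and 2 had a member median of 0.22 in S34F, with 33 of 44 members higher, and 0.02 in WT, against 0.00 and −0.06 over all genes. Without S34F replicate 3 the members' median log2 fold change was 0.02, against 0.08 with it. Without both replicates numbered 3 it was 0.03, and 7 members (15.9%) were called, against 16.9% of all genes: CD59, FOLR1, GORASP1, PPP6R3, TRAPPC4, TRAPPC6A and TRAPPC6B. With the replicate number as a block, 6 members were called (CNIH1 and SERPINA1 added), against 4.05% of all genes.

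The 10 genes of the ontology term that carry the KEGG term as well (SEC23A, SEC24A, SEC24B, SEC24C, SEC24D, SEC31A, SAR1B, SEC13, LMAN1 and PREB) all had log2 fold changes above 0, with a median of 0.14 and 0 called. In 3 of them (30.0%), SEC23A, SEC24A and SEC24B, the groups did not overlap and S34F was above, against 7.38% of all genes tested without overlap in either direction. Of the 128 other genes of the KEGG term tested, 99 (77.3%) were above 0 (median 0.06), 2 were called and 12 (9.38%) did not overlap between groups. The difference between these sets and the members was not tested. A pathway list, including the COPI coat of the return route, holds 70 tested genes that are neither members nor genes of the KEGG term. Of these, 40 (57.1%) were above 0 and 30 below, the median was 0.03, 0 were called and 6 (8.57%) did not overlap between groups. SAR1A, the other SAR1 GTPase, which carries the KEGG term, stood at 12.6, 5.39 and 7.55 FPKM in S34F and 12.5, 12.6 and 10.5 FPKM in WT. S34F replicate 1 lay within the WT range while the other S34F libraries lay below them (log2 fold change −0.51, limma unadjusted p = 0.0981).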

How the data were processed

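Total RNA from 3 S34F and 3 WT samples was sequenced on an Illumina instrument. The authors deposited 1 table of FPKM per gene with annotation columns. Its name speaks of raw counts, but the values are not whole numbers, so no count test was used. The submitters' processing notes name StringTie and edgeR, and the aligner and genome build are not given in the sources used here. The authors' own fold changes, p-values and q-values in the table were not used. Groups follow the U2AF1 form in the sample titles.

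Genes averaging 1 FPKM or more were fitted on log2(FPKM + 1) with limma 3.58.1 in R 4.3.3 (empirical Bayes with a variance trend), with Benjamini-Hochberg adjustment over all 10942 genes tested. A call is an unadjusted p under 0.05. The fit was tested on simulated data. The members without overlap, and the ratios other than those of TRAPPC6A to TRAPPC6B and PPP6R1 to PPP6R3, were compared by an exact permutation test (scipy 1.17.1). Depth was approximated from the smallest steps of single-exon genes, and gene positions and overlaps are from GENCODE 29.

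Named members were those called, those without overlap, the 5 with the largest changes, the 5 highest and 5 lowest, the 3 most variable, and RAB1A, RAB1B and the TMED members. Others are named with their log2 fold changes only, and the values of CD59, SEC16A and SAR1A and the pairs of related members were added after their values were seen. The members and lists were chosen with earlier results of these data known. The main fit held the group only, and the replicate numbers were taken to pair the libraries in the block fit alone. Deviations of same-numbered libraries from their group means correlated at 0.21, 0.17 and 0.38, each above the limit of 0.1. Differently numbered libraries correlated at −0.29 to 0.20. S34F replicate 1 with WT replicate 2 (0.13) and S34F replicate 2 with WT replicate 1 (0.20) also passed that limit, so it does not establish pairing. S34F replicate 2 was closer to WT replicate 1 than to WT replicate 2 (0.17), so replicate 3 alone stands out by number. Alternatives covered scaling, filter, pseudocount, variance model, the replicate block and libraries left out.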

Additional observations from a re-analysis of the deposited data

How the results depend on the processing

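The number of members called was 4, against 2.39% of all genes tested. It was 3 under median-ratio scaling (2.51% of all genes) or upper quartile scaling (2.50%), and 6 with the replicate block (4.05%). It was 1 of the 28 members with a mean of at least 5 FPKM. At that minimum 113 genes were called, out of fewer genes than the 10942 of the main fit. Their share of all genes at that minimum was below the 2.39% of the main fit. When the limit of the unadjusted p was lowered to 0.01, 1 member was called (0.494% of all genes). Requiring a fold above 1.5 on the log2(FPKM + 1) scale besides the usual limit also left 1 (0.585%). Both times this member was FOLR1, which passed the minimum only through WT, where it is high. Without FOLR1 neither stricter rule keeps a call, so they do not support the count. After adjustment, with the limit at 0.05, the number of members called was 0 (0%). With each library left out it ranged from 2 to 6, where the 6, without S34F replicate 3, came with 10.6% of all genes called, and it was 7 without both replicates numbered 3, with 16.9% of all genes called. The members' median log2 fold change ranged from 0.02 to 0.12 over all settings. For the 10 members followed through the settings, 173 values were computed, and 0 changed direction. All of these members but GORASP1 and SERPINA1 had groups that did not overlap, so leaving out libraries could not reverse them. Settings that changed only the variance model or the block left the log2 fold changes the same. The unchanged directions were therefore largely fixed in advance and are no support. Of the 173 values, 14 lost and 7 gained a call. The cause was not tested. Pairing by replicate number in the block fit gained the calls of CNIH1 and SERPINA1 and no other call among those 10 changed. The ratio of PPP6R1 to PPP6R3 without single libraries, a choice made after seeing the data, kept its direction, as values without overlap must. It also largely restates the PPP6R3 values. The log2 fold changes of GOSR2, CUL3 and TRAPPC9 rose in size to 0.37, 0.23 and −0.19 with a pseudocount of 0.01, and that of SERPINA1 to 0.58. FPKM keeps no exact read counts, so the error of low members such as FOLR1 is known only through its 3 values per group.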
